A study of Mus musculus with 4 samples.

Results

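The SIBLING genes, named for small integrin-binding ligand N-linked glycoproteins, encode secreted acidic phosphoproteins of bone and tooth. Accessible chromatin was examined across their gene cluster on mouse chromosome 5, where the members Dspp, Dmp1, Ibsp, Mepe and Spp1 lie in this order and are all read from the plus strand. The window took in the 5 genes, the gaps between them and 50 kb outside the first and the last, chr5:104120712-104491050 in GRCm38 with the genes of GENCODE M21. Of the 255864 regions in the count table, 70 overlapped this window. They were chosen by position and not by their counts, and are numbered here from 1 to 70 in chromosome order, starting on the Dspp side.

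ATAC-seq uses a transposase to place sequencing adapters into open DNA, so that the number of reads in a region reflects how accessible it was. The cells were primary osteoblasts, which secrete and mineralise bone matrix, of 3-day-old C57BL/6 mice, and the study's methods describe isolating osteoblasts by digesting skull bone. WT mice were labelled wild type. TCKO mice carried floxed alleles of Tet1, Tet2 and Tet3 together with Prx1-Cre. The TET enzymes oxidise 5-methylcytosine, a step towards removing DNA methylation. Prx1-Cre is active in limb mesenchyme and in part of the skull mesenchyme, so any cell that never expressed it kept its Tet genes. Per the labels 4 samples were made, 2 of each genotype, although a protocol text gives 3 repeats, and the number of mice pooled is not given in the sources used here. The counts came as a single merged column per genotype. The spread between replicates was therefore not measurable, no test was possible, and every difference below is one between 2 merged libraries.

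The regions of the whole table held 56898657 WT and 34608167 TCKO counts, and those of the window held 16675 and 10776, or 0.0293% and 0.0311% of them. TCKO counts were multiplied by 1.64 to match the WT total, and log2 ratios were taken of TCKO over WT after adding 1 count to each, so a value above 0 means more reads in TCKO. The range in parentheses after a ratio is a 95% Wilson interval that accounts for counting error alone, and PCR copies cannot be told from independent molecules. A change in how many cells had a site open cannot be told apart from a change within each cell. Promoters of the osteoblast markers Runx2, Sp7, Alpl, Col1a1, Col1a2 and Bglap all held counts, 4283 in WT and 2485 in TCKO in sum, with a ratio of -0.07. Of 5 macrophage or osteoclast markers 3 held counts (357 in WT and 280 in TCKO, 0.37), with none at Csf1r and Ptprc. Of 4 endothelial markers 2 held counts (584 and 567, 0.67), with none at Cdh5 and Tie1, and of 4 muscle markers 2 did (327 and 296, 0.57), with none at Myod1 and Myog. All 4 cartilage markers held counts (4286 and 2422, -0.11). Within the macrophage list Spi1 had fewer scaled reads in TCKO (107 counts in WT and 49 in TCKO). Cd68 (201 and 164) and Acp5 (49 and 67) had more. The macrophage, endothelial and muscle sums thus stood above 0 once scaled, as several ratios below do, although each was lower in TCKO in raw counts. Their part in those ratios was not tested.

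SIBLING proteins carry an integrin-binding motif, bind calcium and are phosphorylated in the secretory pathway by the kinase FAM20C. Ibsp (bone sialoprotein) promotes the first hydroxyapatite crystals and Spp1 (osteopontin) restrains mineral growth and anchors osteoclasts to bone. Dmp1 is known from osteocytes and dentin and limits FGF23, Mepe from osteocytes, and Dspp from the odontoblasts of the tooth. RUNX2, the master transcription factor of osteoblasts, binds a Runt consensus and regulates several of these genes.

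The sequences shown here are those of the sites on which the comparison turned, all on the plus strand of GRCm38 as held by RefSeq (GRCm38.p6). Capitals mark matches on either strand to the Runt consensus TGTGGTT or its core TGTGGT, to the AP-1 consensus TGANTCA, to the homeobox core TAATTA and to the TEAD consensus GGAATG. The core lies inside the full Runt consensus, so every full match is also a core match. The bases before the starts of Spp1 and Ibsp are given because the accessible regions at these starts differed in direction. For Ibsp the run stops where the GENCODE transcript begins, and only its end lies in the accessible region.
Spp1 before its start, chr5:104434861-104435110: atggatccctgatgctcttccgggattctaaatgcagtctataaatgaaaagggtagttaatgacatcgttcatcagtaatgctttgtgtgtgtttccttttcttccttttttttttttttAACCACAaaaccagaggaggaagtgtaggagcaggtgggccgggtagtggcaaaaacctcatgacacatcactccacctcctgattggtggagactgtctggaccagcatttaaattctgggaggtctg
Ibsp before its start, chr5:104299037-104299170: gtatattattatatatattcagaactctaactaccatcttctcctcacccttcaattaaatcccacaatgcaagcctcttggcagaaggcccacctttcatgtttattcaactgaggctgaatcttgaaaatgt

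The next set are the neighbouring regions 38 and 39, which both held fewer reads in TCKO in the gap before Spp1, the neighbouring regions 59 and 60, which both held more just after Spp1, and region 66 in an intron of Pkd2, the lowest of the window. Regions longer than 300 bases are shown by their central 300.
Region 38, chr5:104370773-104370939: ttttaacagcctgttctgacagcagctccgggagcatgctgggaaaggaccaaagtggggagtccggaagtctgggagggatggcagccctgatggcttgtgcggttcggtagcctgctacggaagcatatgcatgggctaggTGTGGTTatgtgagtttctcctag
Region 39, chr5:104371174-104371473: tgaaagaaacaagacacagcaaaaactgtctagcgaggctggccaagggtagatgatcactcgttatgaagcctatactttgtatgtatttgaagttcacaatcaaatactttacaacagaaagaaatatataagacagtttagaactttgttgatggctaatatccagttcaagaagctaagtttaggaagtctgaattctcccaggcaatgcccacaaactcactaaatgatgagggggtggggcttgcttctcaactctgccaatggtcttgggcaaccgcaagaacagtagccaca
Region 59, chr5:104441722-104442021: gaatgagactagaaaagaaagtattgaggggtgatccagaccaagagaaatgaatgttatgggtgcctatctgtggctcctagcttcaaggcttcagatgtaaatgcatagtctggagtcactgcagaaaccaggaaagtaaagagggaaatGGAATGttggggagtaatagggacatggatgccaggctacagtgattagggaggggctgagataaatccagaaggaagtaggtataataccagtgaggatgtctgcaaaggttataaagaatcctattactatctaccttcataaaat
Region 60, chr5:104442403-104442561: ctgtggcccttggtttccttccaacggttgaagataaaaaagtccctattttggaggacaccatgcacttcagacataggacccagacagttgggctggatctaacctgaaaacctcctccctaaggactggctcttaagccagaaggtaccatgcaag
Region 66, chr5:104465556-104465855: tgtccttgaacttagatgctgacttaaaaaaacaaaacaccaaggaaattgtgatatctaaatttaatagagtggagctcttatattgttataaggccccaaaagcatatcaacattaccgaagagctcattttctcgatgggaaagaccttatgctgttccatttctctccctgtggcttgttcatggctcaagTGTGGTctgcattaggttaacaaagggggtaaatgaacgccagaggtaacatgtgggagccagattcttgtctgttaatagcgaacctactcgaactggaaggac

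A Runt match stands before the Spp1 start and inside the accessible region there, and another in region 38. The bases shown for region 66 hold the core alone and those for region 59 a TEAD match, and those for Ibsp and for regions 39 and 60 hold none of these letters. Region 66 also has a TEAD match outside the bases shown. Among 32851 RefSeq promoters, 4.40% held the full Runt consensus in the 250 bases before the start and 14.0% held the core. Of the 5 members 4 were matched to RefSeq promoters, with 2 promoters each for Dmp1 and Spp1 and 1 each for Ibsp and Mepe. The full consensus was present in 1 of 2 for Dmp1 and in 1 of 2 for Spp1. It was not found for Ibsp or Mepe, although the Mepe promoter held 2 core matches and 1 homeobox match.

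To ask how accessible each member was without the TET enzymes, counts were summed over each gene and the 2 kb before its start. Dspp, Mepe and Spp1 held more reads in TCKO than in WT once the totals were matched, and Dmp1 and Ibsp differed by less than their counting error. Of the 5 members 3 had an interval wholly above 0, against 23.6% of 18073 protein-coding loci with regions, and none had one wholly below 0, against 32.8%. The median ratio was 0.45 over the members and -0.03 over all loci. Without scaling, or with the depth taken from the peak caller's background, the median of all regions itself moved from 0.06 to -0.64 and -0.54, and the Mepe and Spp1 ratios changed sign. Under these settings Dmp1 fell to -0.79 and -0.68 and Ibsp to -0.87 and -0.76. The counts of members above and below 0 are thus those of the total-count scaling. Of the 44 regions of the window with a ratio above 0, 29 and 28 turned negative under these 2 settings. Among them were, in each setting, 8 of the 23 whose interval lay above 0. Both settings lower every ratio, so no region below 0 could turn positive, and they do not test the regions below 0. A difference between members is the same under any single factor, since the factor acts alike on every locus, and is given with a 95% Wald interval.

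Spp1, which encodes osteopontin (ENSMUSG00000029304, chromosome 5, 104435118 to 104441050), had 582 reads in WT and 489 in TCKO over 3 regions. Scaled to the WT total the TCKO count was 804, a log2 ratio of 0.47 (0.29 to 0.64), which became -0.25 without scaling and -0.14 with the peak caller's background. With the sites within 25 kb on either side added it was -0.08. A lower ratio was found at 92.9% of the loci. Region 58 (104434961 to 104435302) covers the Spp1 start and an exon of the uncharacterised Gm42793. It held 199 counts in WT and 205 in TCKO. The raw counts were thus nearly equal, although the TCKO total over all regions was lower, and the ratio of region 58 was 0.76 (0.48 to 1.04). The same site was a peak in both lists, with a pileup of 34 reads at the summit in WT and in TCKO. The upstream regions 57 (56 and 51 counts, 0.57, 0.04 to 1.13) and 56 (327 and 233, 0.23, -0.01 to 0.47) also had more scaled reads in TCKO, region 56 by less than its counting error. No region lay in the remainder of the Spp1 gene.

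Ibsp, which encodes bone sialoprotein (ENSMUSG00000029306, 104299171 to 104311469), had 254 reads in WT and 139 in TCKO over 4 regions. The locus ratio was -0.15 (-0.45 to 0.15), and it was 0.29 with the sites within 25 kb on either side added. The sum of the 4 regions joined regions of opposite direction. Region 23 (104299141 to 104299517) covers the Ibsp start and held 111 WT and 28 TCKO counts, or 46.0 after scaling. Its ratio was -1.25 (-1.86 to -0.68), a level below which only 2.17% of all regions fell, and it was called as a peak in WT alone. A region called in a single genotype entered the table through that genotype, which favours a ratio of that direction. Region 24, in the intron that follows, held 39 and 44 counts, a ratio of 0.87 (0.27 to 1.51). The ratio of region 24 exceeded that of region 23 by 2.16 (1.30 to 3.02), a pair set side by side after the values were seen and with region 23 in the table through WT only. Region 22 before the start held 40 and 22 counts (-0.14, -0.89 to 0.60), and the intronic region 25 held 64 and 45 (0.21, -0.34 to 0.76). Neither differed beyond counting error. Accessibility at Ibsp was modest even in WT, where the start region came close to the window's median of 110 counts and the other 3 stayed below it.

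With total-count scaling the starts of Ibsp and Spp1 thus stood on opposite sides of equality, the Ibsp start with fewer and the Spp1 start with more TCKO reads. Without scaling and with the peak caller's background the Spp1 start was near equality, at 0.04 and 0.15, and the Ibsp start was at -1.95 and -1.85. The ratio at the Ibsp start was below that at the Spp1 start by 2.03 on the log2 scale, a difference of -2.03 (-2.69 to -1.37) that no single scaling factor alters. It is a description, since region 23 entered the table only through its WT peak, whereas region 58 was called in both genotypes. Over the whole loci the difference was -0.62 (-0.96 to -0.27).

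Dmp1 (ENSMUSG00000029307, 104202613 to 104214102) had 965 reads in WT and 557 in TCKO over 3 regions, which gave a ratio of -0.08 (-0.23 to 0.07). Its regions were not alike. Region 12 (104201298 to 104202156), which lies just before the GENCODE start and has a further RefSeq start on its other side, held 473 WT and 232 TCKO counts, a ratio of -0.31 (-0.54 to -0.08). The intronic region 14 (104210540 to 104211273) held 380 and 275 counts, a ratio of 0.25 (0.03 to 0.47). Region 13, in an exon, held 112 and 50 counts (-0.44, -0.92 to 0.03) and was called as a peak in WT alone. The region before the start was thus lower in TCKO and the intronic one higher, though not with either of those 2 settings, while the exonic one could not be told from no change at this depth.

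Mepe (ENSMUSG00000053863, 104325329 to 104338611) had 654 reads in WT and 544 in TCKO over 3 intronic regions, for a ratio of 0.45 (0.29 to 0.62), which turned to -0.27 without scaling and -0.16 with the peak caller's background. No region lay at its start. The counts came mostly from region 27 (104330941 to 104331896), which held 365 in WT and 330 in TCKO and had a ratio of 0.57 (0.36 to 0.79). Repeats made up 95.1% of this region and 54.1% of region 28 beside it. Region 28 held 107 and 76 counts (0.22, -0.20 to 0.65). Region 29, free of repeats, held 182 and 138 counts, a ratio of 0.32 (-0.00 to 0.64). The site with most of the Mepe reads was thus nearly all repeat, and its part in the Mepe ratio was not tested.

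Dspp (ENSMUSG00000053268, 104170712 to 104180127), a gene known mainly from dentin, had a single region in an exon near its end and none at its start. Region 10 (104178695 to 104179145) held 73 WT and 86 TCKO counts, which gave a ratio of 0.94 (0.51 to 1.40), and 97.9% of the loci had a lower one. It was a weak site called in both genotypes, with a pileup of 10 reads in each. Dspp was the only member whose ratio stayed above 0 under every scaling, at 0.23 with no scaling, the lowest of them, but it was -0.09 when the sites within 25 kb on either side were added.

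All 10 pairs of members were compared. Dmp1 and Ibsp could not be told apart (0.08, -0.26 to 0.41), nor could Mepe and Spp1 (-0.01, -0.25 to 0.22). The intervals of the other pairs excluded 0. Dmp1 was lower than Mepe by a difference of -0.53 (-0.75 to -0.30) and lower than Spp1 by one of -0.54 (-0.77 to -0.31). Ibsp and Mepe differed by -0.60 (-0.94 to -0.26). Dspp exceeded Dmp1 by 1.03, with a lower bound of 0.55, and Ibsp by 1.11 (0.57 to 1.65), and it exceeded Mepe by 0.50 (0.02 to 0.98) and Spp1 by 0.49 (0.01 to 0.97), both close to the limit of counting error. In order of ratio the members ran from Ibsp and Dmp1 through Mepe and Spp1 to Dspp. This order did not hold with the sites within 25 kb on either side added. Dspp was then at -0.09, Spp1 at -0.08, Dmp1 at -0.07, Ibsp at 0.29 and Mepe at 0.30.

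**Figure D1:**
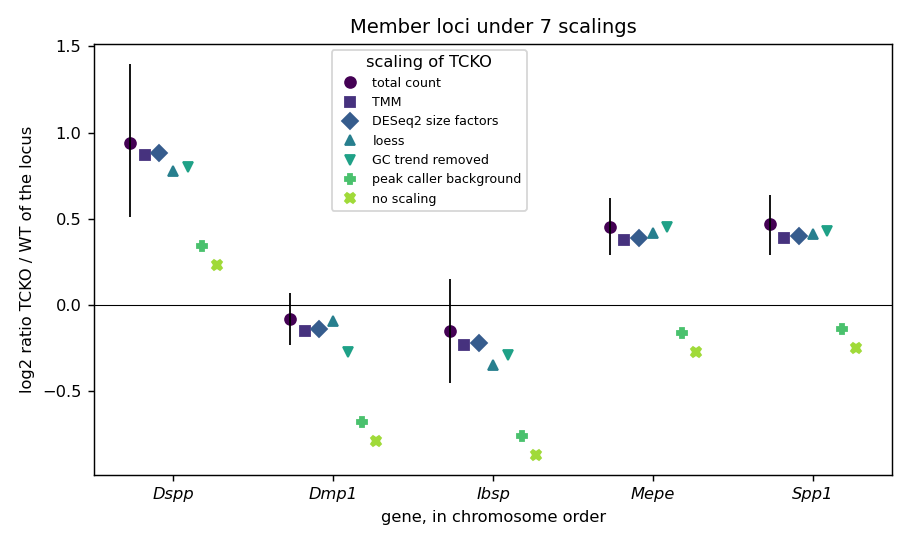
Log2 ratio of TCKO over WT (vertical axis) for the 5 member loci in chromosome order under 7 scalings of the TCKO counts, with the 95% counting interval drawn on the total-count value. Dmp1 and Ibsp lie below 0 under every scaling and Dspp above it, while Mepe (0.45) and Spp1 (0.47) turn to -0.27 and -0.25 without scaling and to -0.16 and -0.14 with the peak caller's background. The total-count intervals of Dmp1 and Ibsp include 0. TMM, DESeq2 size factors, the peak caller's background and no scaling each lower every ratio, so they could not raise these loci above 0.

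Levels within a genotype were compared per kb of region lying in each gene. In WT this density was 582 counts per kb at Spp1, 455 at Mepe, 453 at Dmp1, 260 at Ibsp and 162 at Dspp. In TCKO, without scaling, it was 599 at Spp1, 378 at Mepe, 299 at Dmp1, 191 at Dspp and 142 at Ibsp. Spp1 was the densest in both genotypes, and Ibsp and Dspp, the least dense, changed places. All regions of the table together held 664 counts per kb in WT and 404 in TCKO, so no member exceeded this level in WT and Spp1 alone did in TCKO.

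Across the whole window the summed log2 ratio was 0.09 (0.05 to 0.12). It lost nearly all its size with TMM (0.01) or DESeq2 size factors (0.02) and changed sign when the trend with GC content was removed (-0.02), with no scaling (-0.63) or with the peak caller's background (-0.52), so no direction is given for the window as a whole. The median region stood at 0.22 against 0.06 over all regions, and the quartiles were -0.20 and 0.57 against -0.30 and 0.54. The window was dense in accessible sites, with 18.9 regions per 100 kb against 10.2 on chromosome 5. Of its 70 regions 12 had an interval below 0 (17.1%, against 18.9% of all regions) and 23 had one above 0 (32.9%, against 29.5%). For the other 35 the interval included 0. These shares were near those of all regions.

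**Figure D2:**
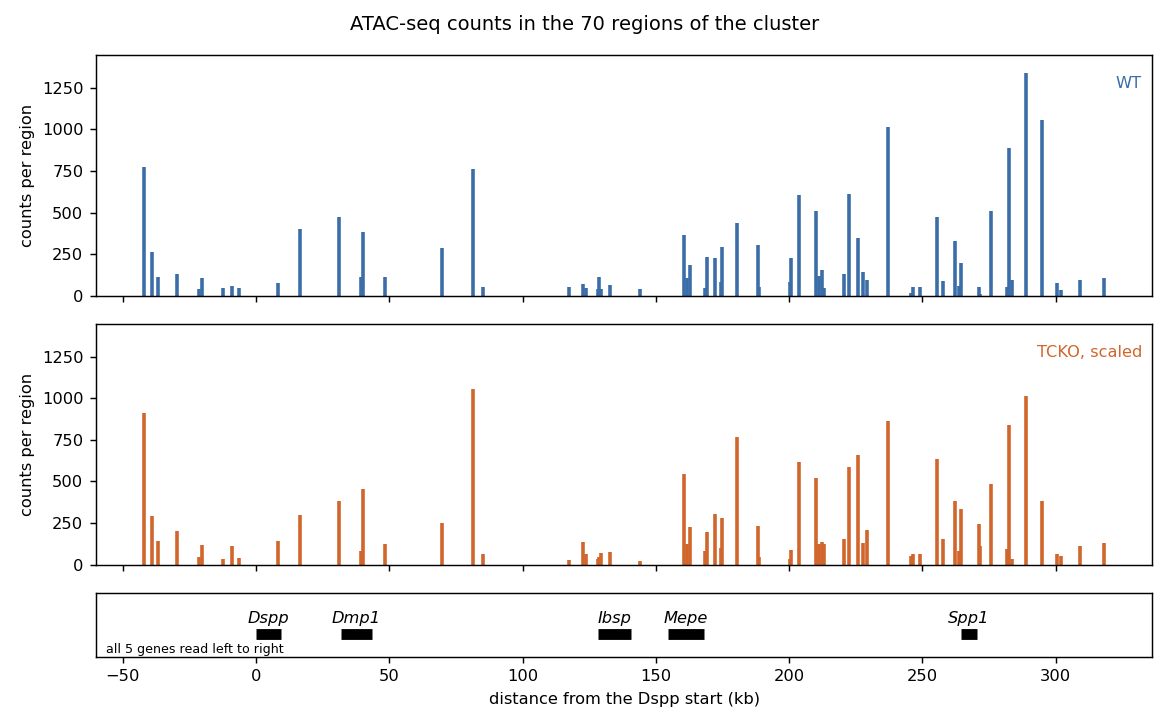
Counts per region (vertical axes) for WT and for TCKO scaled to the WT total, along the distance from the Dspp start in kb, with the 5 member genes drawn below. The highest bars stand in the flanks and gaps, at the Pkd2 start (1339 in WT and 1016 in TCKO) and in the Dmp1 to Ibsp gap (763 and 1057), and not in the member genes.

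Of the 70 regions only 10 lay in a member gene. The gap between Mepe and Spp1, 96.5 kb long, held 28 of the 70 regions and 6823 WT and 4686 TCKO counts. Its ratio was 0.18 (0.12 to 0.23) with total-count scaling, although its raw counts were lower in TCKO. Its strongest site was region 50 (104407310 to 104408427), at -27.2 kb from the Spp1 start, with 1015 and 524 counts and a ratio of -0.24 (-0.39 to -0.08). Regions 35 and 47 of the same gap went the other way, with 438 and 468 counts (0.81, lower bound 0.63) and 345 and 401 counts (0.93, 0.73 to 1.14). The gap thus held well-covered sites on both sides of equality.

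The other segments were smaller. The 85.1 kb from Dmp1 to Ibsp held 8 regions and a ratio of 0.31 (0.19 to 0.42), mostly from region 17 (104251703 to 104252344) with 763 WT and 643 TCKO counts (0.47, 0.32 to 0.62). The Dspp to Dmp1 gap held regions 11 and 12 only, 873 and 412 counts together, a ratio of -0.37 (-0.53 to -0.20). The single region 26 between Ibsp and Mepe held 42 and 13 counts (-0.94, -1.86 to -0.09). In the 50 kb before Dspp 9 regions gave 0.27 (0.16 to 0.38), led by region 1 with 775 and 555 counts (0.24, 0.08 to 0.39). The 50 kb after Spp1 gave -0.27 (-0.35 to -0.20) over 12 regions with 4310 and 2168 counts, 2 of them the Pkd2 regions 65 and 66 with the most WT counts of that flank. With the flanks left out, the 49 remaining regions gave 0.18 (0.14 to 0.23). Each segment sum above 0 here rests on the total-count scaling, since its raw counts were lower in TCKO. They were 1423 and 1070 from Dmp1 to Ibsp, 1572 and 1150 before Dspp, and 10793 and 7458 without the flanks.

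Regions past a 2-fold cutoff, the cutoff of the study's methods, were counted next. In the window 5 regions passed it downwards in TCKO (7.14%), against 4.51% of all regions, and 5 passed it upwards (7.14%), against 12.3%. An interval lying wholly past 2-fold was found for 1 lower region, against 0.654% of all regions, and for 2 higher regions, against 3.82%. These shares are those of the total-count scaling. Without scaling 18.6% of the window's regions passed the cutoff downwards, against 25.6% of all regions, and 2.86% upwards, against 3.17%. With the peak caller's background the shares were 15.7% against 19.9% downwards and 4.29% against 3.91% upwards. The study set its cutoff on the relative enrichment of peaks and reported more closing than opening regions in TCKO cells. That measure was not repeated here. In 10 of the 70 regions neither genotype reached 50 counts, too few to measure a 2-fold change closely. With so few regions in the window, the shares say little on whether it differs from the rest of the genome.

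**Figure D3:**
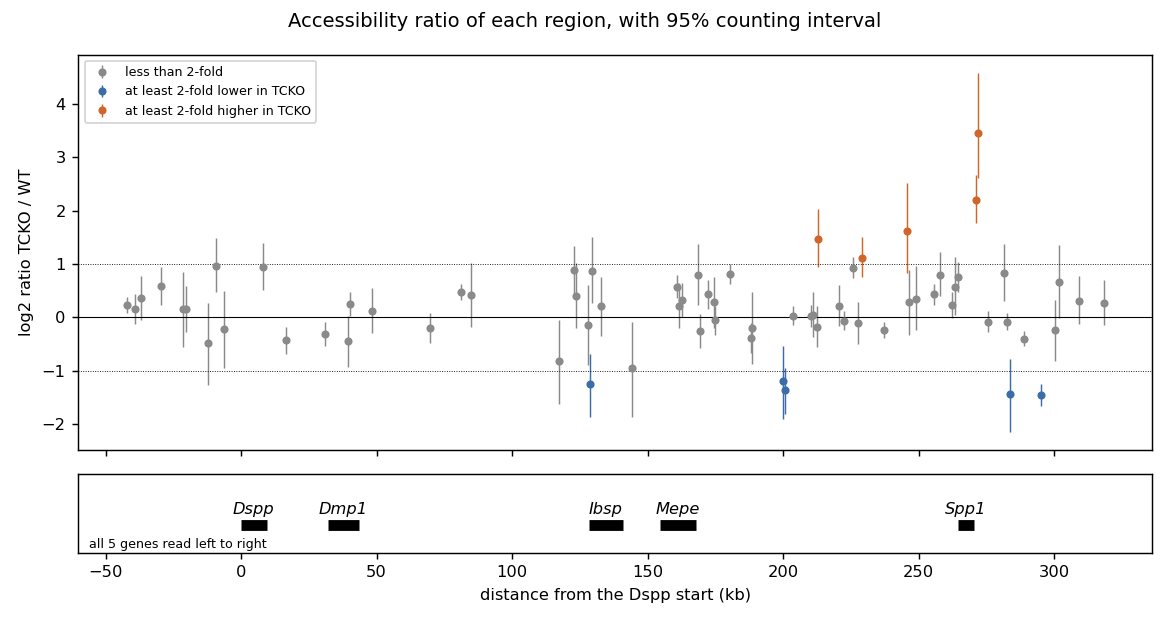
Log2 ratio of TCKO over WT (vertical axis) for each of the 70 regions, along the distance from the Dspp start in kb, with 95% counting intervals and dotted lines at 2-fold. The 5 lower regions (blue) lie at the Ibsp start, in the Mepe to Spp1 gap and beyond Spp1, and the 5 higher ones (orange) lie in that gap and just after Spp1, where region 60 reaches 3.45.

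The highest ratios of the window belonged to a pair of neighbouring sites just past the end of Spp1. Region 60 (104442403 to 104442561) held 9 WT and 66 TCKO counts, 11.0-fold more after scaling and a log2 ratio of 3.45 (2.61 to 4.58). Of all regions 99.9% had a lower ratio. It was a weak site, with a pileup of 13 reads over a background of 4.95 in TCKO. With 10 counts added its ratio was 2.64. Region 59 (104441694 to 104442049), 644 bp after the Spp1 end, held 52 and 147 counts, a ratio of 2.19 (1.76 to 2.67), with 99.1% of regions lower. Both were called as peaks in TCKO alone, and 353 bp separated them. Together they held 61 counts in WT and 213 in TCKO, 2.50 (2.11 to 2.93). The ratio at region 59 exceeded that at the Spp1 start by 1.46 (0.92 to 1.99). Region 61, the next site downstream, held 512 and 295 counts (-0.08, -0.28 to 0.13) and was exceeded by region 60 by 3.67 (2.64 to 4.70). Both comparisons were picked after the values were seen, and regions 59 and 60 entered the table only through TCKO, where they were high, so these differences are descriptions.

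The other higher regions lay in the gap before Spp1. Region 44 (104383650 to 104383817), at -51.4 kb from the Spp1 start, held 44 counts in WT and 75 in TCKO (1.47, 0.95 to 2.02), and region 49, at -35.4 kb, held 96 and 128 (1.12, 0.75 to 1.51). Region 51 held 17 and 33 counts (1.62, 0.84 to 2.51). Regions 44 and 51 were called as peaks, and so entered the table, in TCKO alone and region 49 in both genotypes. None of these 3 intervals lay wholly past 2-fold.

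Among the lower regions, 38 and 39 formed a second neighbouring pair, 147 bp apart and 63.6 kb before the Spp1 start. Region 39 (104371087 to 104371560) held 226 WT and 53 TCKO counts, a ratio of -1.36 (-1.80 to -0.95). Region 38 (104370773 to 104370939) held 84 and 22 counts (-1.19, -1.89 to -0.54). Their sum of 310 and 75 counts gave -1.32 (-1.69 to -0.97), and neither was called as a peak in TCKO. Region 40, the next site towards Spp1, held 606 and 377 counts (0.03, -0.15 to 0.22). Region 39 was below region 40 by a log2 difference of -1.41 (-1.88 to -0.94), again a pair picked with the values known, and regions 38 and 39 entered the table through WT alone.

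The remaining lower sites lay beyond Spp1. Region 66 (104465150 to 104466261), in an intron of Pkd2, the calcium-permeable channel polycystin-2, held 1056 counts in WT and 234 in TCKO. Its ratio of -1.45 (-1.66 to -1.25) was the lowest of the window, and 1.15% of all regions were lower. At its summit the pileup was 61 reads in WT and 17 in TCKO, over a background of 5.23 and 2.91. The Pkd2 start, region 65 (104458898 to 104460463), held 1339 and 618 counts (-0.40, -0.54 to -0.26). The intronic region was below the start by a difference of -1.06 (-1.30 to -0.81), a pair chosen with the values known. Region 64 (104454174 to 104454337) held 95 and 21 counts (-1.43, -2.14 to -0.78) and was called in WT alone. Region 66 was the only lower region whose interval lay wholly past 2-fold, and it belongs to the gene next to the cluster and not to a member.

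**Figure D4:**
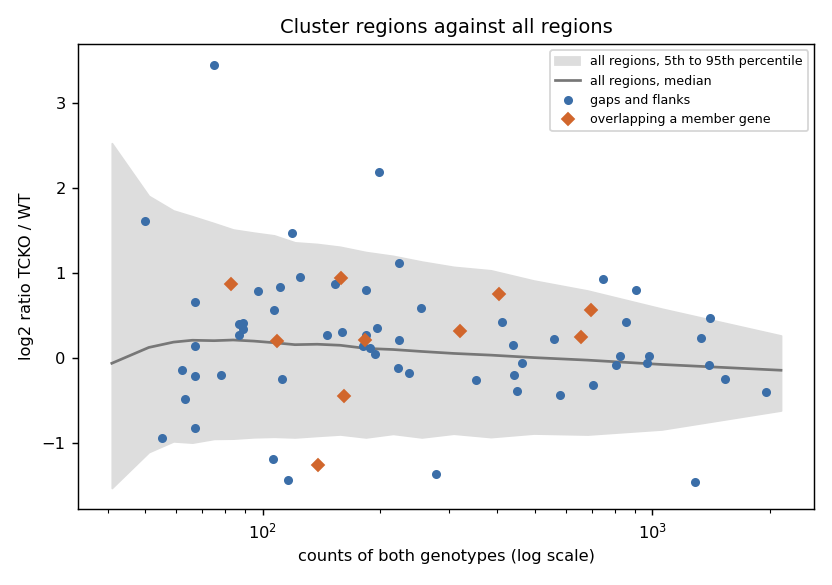
Log2 ratio of TCKO over WT (vertical axis) against the counts of both genotypes (log scale) for the 70 regions, with regions overlapping a member gene as diamonds, and the median and the 5th to 95th percentiles of all regions in bins of count as line and band. Regions 59 and 60 lie far above the band and regions 17, 35, 44 and 47 just above it, and regions 23, 38, 39, 64 and 66 lie below it.

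Peak lists gave a second view of the same libraries. In the window the authors called 65 peaks in WT and 56 in TCKO. An overlap of 1 bp or more was found for 48 WT peaks (73.8%) and for 51 TCKO peaks (91.1%). By region, 48 had a peak in both lists, 17 in WT only and 5 in TCKO only, and over all regions these classes made up 56.8%, 33.0% and 10.2%. The regions called in both were the well-covered ones, with a median of 212 counts in WT and 140 in TCKO. Those called in WT only had a median of 50 and 27, and a median ratio of -0.24 with a range from -1.43 to 0.57. A missing peak was no measure of a lower ratio, since region 57 near Spp1 had no TCKO peak although its scaled count was higher there.

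Sequence features of the regions were then read from the reference. In the central 200 bp the Runt consensus occurred in 5 of the 70 regions (7.14%), against 8.71% of all regions, and its core in 15 (21.4%), against 22.2%. The AP-1 consensus occurred in 14 of the 70, against 23.6% of all regions, the TEAD consensus in 15 (21.4% against 16.3%) and the homeobox core in 6 (8.57% against 2.47%). For regions shorter than 200 bp the bases searched run past the region. The AP-1 match counted for region 7, which is 106 bp long, lies outside it. Regions with the homeobox core were numbers 5, 13, 26, 32, 50 and 54, which include the strongest site of the Mepe to Spp1 gap. Their median ratio was -0.04, with a range from -0.94 to 0.43, against 0.22 in the regions without it.

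By direction, matches were again counted in the central 200 bp. The Runt core was present in 3 of the 5 regions at least 2-fold lower in TCKO (38, 64 and 66) and in none of the 5 higher ones. Over the whole table the core was found in 23.5% of regions at least 2-fold lower and in 22.6% of those at least 2-fold higher, and the full consensus in 10.1% and 8.02%. The TEAD consensus was in 3 of the 5 higher regions (44, 51 and 59), against 18.1% of all higher regions, and in none of the lower. AP-1 was in 1 higher region (44), against 42.8% of all regions at least 2-fold higher. The 5 full Runt matches lay in regions 29, 38, 42, 47 and 63, whose ratios ran from -1.19 to 0.93 with a median of 0.05. A match says only that the letters are present, and these counts are too small to set one group of regions against another.

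CpG sites, where DNA methylation is placed, were sparse, with a median of 1.15 per 100 bp in the window and 1.02 over all regions. The Pkd2 start stood apart with 8.11 per 100 bp. Across the 70 regions CpG density had a Spearman rho of -0.25 with the log2 ratio, and across all regions one of -0.22. GC content had a rho of 0.07 in the window and -0.12 over all regions. Regions of one library share its depth and scaling and neighbours are not independent, so these are descriptions. Region 66 held 2.52 CpG per 100 bp, the region at the Ibsp start 1.59 and that at the Spp1 start 1.46, while region 59 held none.

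Other genes of the pathway were summed in the same way. The partners of the SIBLING proteins comprise the kinase Fam20c, the proteases Bmp1, Phex, Mmp2, Mmp3 and Mmp9, and the receptor genes Itgav, Itgb1, Itgb3, Itgb5 and Cd44. Of these 11 genes 7 had an interval below 0, against 32.8% of all loci, and 2 above it, against 23.6%, with a median of -0.11. Phex, the protease that acts on peptides of Mepe, was the highest with 1351 counts in WT and 1012 in TCKO (0.30, 0.18 to 0.42). Mmp3 was the lowest with 268 and 119 (-0.45, -0.76 to -0.14). Among the integrin subunits Itgb3, whose product pairs with that of Itgav to bind osteopontin, held 9875 and 4909 counts (-0.29, -0.34 to -0.24) and Itgav 5939 and 3214 (-0.17, -0.23 to -0.11), while Itgb1 could not be told from no change (0.04, -0.05 to 0.12).

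The SIBLING genes belong to the larger family of secretory calcium-binding phosphoproteins, whose other members serve enamel and milk and descend from Sparc-like genes. Of 10 relatives only 4 had a region at all. Sparcl1, the nearest relative on the Dspp side of the window, held 1522 counts in WT and 857 in TCKO (-0.11, -0.23 to 0.01). Sparc, the abundant osteonectin gene, held 4761 and 2625 (-0.14, -0.21 to -0.07). Enam held 42 and 53 (1.04, 0.47 to 1.63) and Csn3 held 76 and 47 (0.02, -0.50 to 0.55). The median of the 4 was -0.04. Ambn, Amtn, Odam, Amelx, Csn2 and Csn1s1 had no region.

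Of 13 other bone matrix and mineralisation genes 6 had an interval below 0 and none above it, beside 32.8% and 23.6% of all loci, with a median of -0.09. Mgp, an inhibitor of mineralisation, held 1068 counts in WT and 467 in TCKO (-0.48, -0.63 to -0.32), and Alpl, the phosphatase that frees phosphate for mineral, held 3701 and 1724 (-0.38, -0.47 to -0.30). Col1a1, the main collagen of bone, did not differ beyond counting error (-0.09, -0.18 to 0.01). Of 8 regulators 3 had an interval below 0 and 1 above it, beside the same shares of all loci, with a median of -0.06. Dlx5 held 830 and 389 counts (-0.38, -0.55 to -0.20), Sp7 held 961 and 486 (-0.27, -0.42 to -0.11) and Dlx3 held 409 and 328 (0.40, 0.19 to 0.61), while the large Runx2 locus was at 0.00 (-0.03 to 0.03). The ratios of Mepe, Spp1 and Dspp were above that of every one of these bone matrix genes, and Dmp1 and Ibsp stood within their range of -0.48 to 0.34. The top of this range was Bglap2, with 106 and 82 counts (0.34, -0.07 to 0.76). Its interval took in the ratios of Mepe (0.45) and Spp1 (0.47). Whether the difference between these lists exceeds the spread between animals cannot be told from merged libraries.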

How the data were processed

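Raw read counts per region, with replicates merged into 1 column per genotype, were used as the authors deposited them. Per the study's methods and the labels, reads were aligned with STAR 2.7.0e to GRCm38, uniquely mapping reads were kept and peaks were called with MACS2 on the merged samples. Removal of duplicate reads and a shift for the transposase are not given in the sources used here, nor is the way reads were counted beyond the file naming, which points to bedtools multicov. The deposited peak lists gave a fold enrichment over local background, which is a ratio, and a −log10 p-value, from which the pileup and background at each summit were solved. The deposited −log10 q-value served as a score to rank and filter peaks. Total counts of 56898657 in WT and 34608167 in TCKO set the precision.

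Samples were grouped by the genotype in their titles. The planned edgeR test could not be run on merged columns, so ratios with 95% Wilson intervals of the TCKO share are given. A difference between 2 loci or regions is a difference of log odds without added counts, with a 95% Wald interval. Alternatives used TMM (edgeR 4.0.16), size factors (DESeq2 1.42.0, R 4.3.3), no scaling, the depth of the peak caller's background, loess (span 0.3) and 20 bins of GC. Sequences and soft-masked repeats came from RefSeq GRCm38.p6 and features from GENCODE M21. Steps were tested on simulated data. Scripts ran in Python 3.11.15 with numpy 2.4.6, scipy 1.17.1, pandas 2.3.3, statsmodels 0.14.6 and pysam 0.24.0.

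The members, gene lists, marker lists, motifs and rules were chosen with earlier results of these data known. Named genes were the 5 members, Pkd2 and 4 lists. The lists are given by their counts with values for some genes, and 2 genes of them were left out and are not reported here. Named regions were the richest of each gene and gap, those within 1 kb of a member start, the 3 lowest and 3 highest with at least 50 counts in the richer genotype, and those wholly past 2-fold. Regions 7, 13, 25, 28, 29, 35, 38, 40, 47, 49, 51, 56 and 61, and the lists of regions by motif, were named after their values were seen.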

Additional observations from a re-analysis of the deposited data

How the results depend on the processing

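No paired analysis was possible because the deposited counts hold 1 merged column per genotype, and for the same reason the edgeR and DESeq2 tests and leaving out each replicate were not run. The scaling mattered most. With TMM, DESeq2 size factors, no scaling, the peak caller's background and the GC trend removed, the window's log2 ratio of 0.09 became 0.01, 0.02, -0.63, -0.52 and -0.02. With no scaling first and the peak caller's background second, Dspp was at 0.23 and 0.34, Dmp1 at -0.79 and -0.68, Ibsp at -0.87 and -0.76, Mepe at -0.27 and -0.16 and Spp1 at -0.25 and -0.14, lower regions numbered 13 (18.6%, against 25.6% of all regions) and 11 (15.7%, against 19.9%) and higher ones 2 (2.86%, against 3.17%) and 3 (4.29%, against 3.91%). Under the same settings 29 and 28 of the 44 regions above 0 turned negative, among them 8 of the 23 with an interval above 0. Those chosen by rule with such an interval were region 1 (-0.48 and -0.37), region 14 (-0.47 and -0.36), region 17 (-0.25 and -0.14), region 27 (-0.15 and -0.04) and region 57 (-0.13 and -0.03). Removing the GC trend moved Dmp1 to -0.27. Without flanks the window was at 0.18 with 3 lower and 3 higher regions. Loci widened to 25 kb on either side gave -0.09 for Dspp, 0.29 for Ibsp and -0.08 for Spp1, since neighbouring sites enter the sums. Summing only within 2 kb of a start put Dmp1 at -0.31, and Dspp and Mepe had no region there. A fold of 3 left 0 lower and 3 higher regions, an interval wholly past 2-fold 1 and 2, and a fold of 1.5 gave 17 higher regions. The Runt consensus was in 10 regions when searched over the whole region and in 15 with the shorter letters. The loess trend, 10 counts added, at least 50 counts, flanks of 25 and 100 kb and the peak list settings changed none of these values beyond the error or the 1.5-fold limit. Regions with few counts limit any finer statement.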

Other observations

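Several genes around the SIBLING proteins showed locus ratios that the comparison of the cluster did not use. Fam20c, the kinase of their serines, held 2838 WT and 1602 TCKO counts, with a log2 ratio of -0.11 (-0.20 to -0.02). Bmp1, the protease that cleaves the products of Dmp1 and Dspp, held 3376 and 2284 counts, a ratio of 0.15 (0.08 to 0.23). Mmp2 held 6236 and 3242 counts (-0.23, -0.29 to -0.17). Cd44, a receptor for osteopontin, was at -0.06 (-0.12 to -0.01). Each of these ratios is small beside those of Dspp, Mepe and Spp1.

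Postn and Omd, which encode matrix proteins of the periosteum and of bone, held 342 and 158 counts (-0.40, -0.67 to -0.13) and 2271 and 1154 counts (-0.26, -0.36 to -0.16). The osteocalcin genes Bglap (93 and 51 counts) and Bglap2 (106 and 82 counts) had 1 region each and differed by less than counting error, and near-identical copies can share or lose their reads. Among regulators Mef2c was at -0.34 (-0.40 to -0.27).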
